A study of Homo sapiens with 24 samples.

Results

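TGF-β and the cytokine pair IL-4+IL-13 were compared with each other, without a vehicle library in the test, in human stem cell-derived sensory neuron cultures. The libraries were chosen by title: the 6 labelled TGF-β and the 6 labelled IL-4+IL-13, which are 12 of the 24 libraries of the series, with 1 library of each treatment in each of batches 1 to 6. All cultures came from the wild-type H9 line of human embryonic stem cells (spelled H9WAO9 in the labels), which is a single line, so the batches are repeated differentiations and not different donors. Cells were taken through vagal neural crest spheroids to sensory neurons, matured, and then given TGF-β at 2 ng/ml, or IL-4 at 10 ng/ml together with IL-13 at 3 ng/ml, for 5 days, in PBS carrying 0.1% bovine serum albumin. The 6 vehicle libraries received this solution without a cytokine and are used below only to place levels. The 6 IL-6 libraries were left out of the comparison.

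TGF-β binds a pair of receptor kinases, TGFBR2 and TGFBR1, that phosphorylate SMAD2 and SMAD3, and it is best known as an inducer of extracellular matrix and of genes for matrix turnover. IL-4 and IL-13 share receptor chains, of which IL4R pairs with IL13RA1, and they activate JAK kinases and the transcription factor STAT6, the route of type 2 inflammation in airway and skin. Both signals are associated with remodeling of asthmatic airways, and the direct comparison asks which transcripts part them.

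RNA was taken from whole cultures, in which the study's flow cytometry found neurons to be a minority, so every level is that of a mixed culture, and more RNA per cell cannot be told apart from more cells of a type. Reads counted on genes ranged from 33342682 to 39284289 per library under TGF-β (median 34821836) and from 33797210 to 39817784 under IL-4+IL-13 (median 36570712). The labels give the tissue as stem cells. POU5F1 and NANOG, which define pluripotent cells, were too low to be tested, while all 10 neuronal markers were measured, with a summed level of 1559 to 11017 CPM (reads per 1000000 reads of the library, after TMM scaling, median 5487) under TGF-β and of 2601 to 9750 CPM (median 5480) under IL-4+IL-13. Of 6 listed pluripotency markers, the other 4 were tested. Their sum was 18.4 to 210 CPM under TGF-β and 24.8 to 195 CPM under IL-4+IL-13. Batch 2 held the highest of these sums in each treatment, against 37.1 CPM in its vehicle library. Batch 1 held the lowest neuronal sum of each treatment. None of the 10 neuronal markers differed between the treatments in edgeR's quasi-likelihood test, and none had an unadjusted p under 0.05. Of 9 fibroblast and mesenchyme markers, COL1A1 passed and the other 8 did not, at a median log2 fold change of 0.07 over the 9. Their summed level, COL1A1 included, was greater under TGF-β in 6 of 6 batches (4526 to 14256 CPM against 3058 to 7442 CPM). Without COL1A1 the sums were 2482 to 5611 CPM (median 3497) under TGF-β and 2340.5 to 5113 CPM (median 3449) under IL-4+IL-13. They were still greater under TGF-β in 5 of 6 batches, most in batch 1 (5611 against 3694 CPM) and barely in batch 2 (3191 against 3178 CPM). In batch 5 the sum was lower under TGF-β (3500.3 against 5113 CPM). The sum of 9 glial markers was greater under TGF-β in 6 of 6 batches (99.2 to 196 CPM against 64.4 to 121 CPM), and without the 1 member that passed it was greater in 2 of 6 (25.1 to 93.3 CPM against 31.5 to 92.8 CPM). The sum of 7 endothelial markers was smaller under TGF-β in 6 of 6 batches, both with KDR, the member that passed (36.3 to 91.3 CPM against 78.2 to 188 CPM), and without it (10.5 to 34.1 CPM against 10.998 to 54.1 CPM). These sums without passing members were added after the data were seen. The members left out were those that passed, so a smaller difference in the rest was built in. Among the other cell type markers, TH of autonomic neurons (log2 fold change 0.35), CDH1 of epithelium (1.31) and SOX9 of cartilage (0.36) were higher under TGF-β, and MITF (-0.75) and TYRP1 (-1.65) of melanocytes under IL-4+IL-13. In all, 2 of 9 cholinergic and autonomic markers and 2 of 6 melanocyte markers passed. Of epithelium it was 1 of 8, and of cartilage 1 of 6, against 2.53% of all genes tested. The summed level of cholinergic and autonomic markers was greater under TGF-β in 5 of 6 batches. For epithelium, cartilage and melanocytes the sum was greater under TGF-β in 2 of 6 batches each. The calls of CDH1 without batch 2, 3, 5 or 6 (adjusted p from 0.0506 to 0.107), SOX9 without any 1 of batches 2 to 6 (0.0902 to 0.115) and TH without any 1 of batches 3 to 6 (0.107 to 0.158) were lost. No marker of smooth muscle, skeletal muscle, pluripotent cells or leukocytes passed edgeR's test, with 3, 1, 1 and 1 of them at an unadjusted p under 0.05 and 2, 0, 0 and 0 past DESeq2. The part of these cell type markers in the results below was not tested.

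Between the treatments, 700 of 27650 genes differed (2.53% of those tested) at an adjusted p under 0.05 in edgeR's quasi-likelihood test with Benjamini-Hochberg adjustment. Of these, 332 were higher under TGF-β (1.20%) and 368 with IL-4+IL-13 (1.33%). The differences were mostly of moderate size, with a median absolute log2 fold change of 0.80, and 268 genes were also beyond 2-fold (0.969%), 121 of them toward TGF-β (0.438%) and 147 toward IL-4+IL-13 (0.532%). The direction was the same in 6 of 6 batches for 685 of the 700 genes. Libraries of the treatments did not overlap at all for 68 of the 700, against 0.329% of all genes tested. Beyond 8-fold there were 24 genes higher under IL-4+IL-13 and 13 higher under TGF-β. Single batches moved the count: 1347 genes passed without batch 1, 537 without batch 2 and 258 without batch 3. It was 258 without batch 4, 169 without batch 5 and 294 without batch 6, and 144 of the 700 passed whichever batch was left out.

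**Figure D1:**
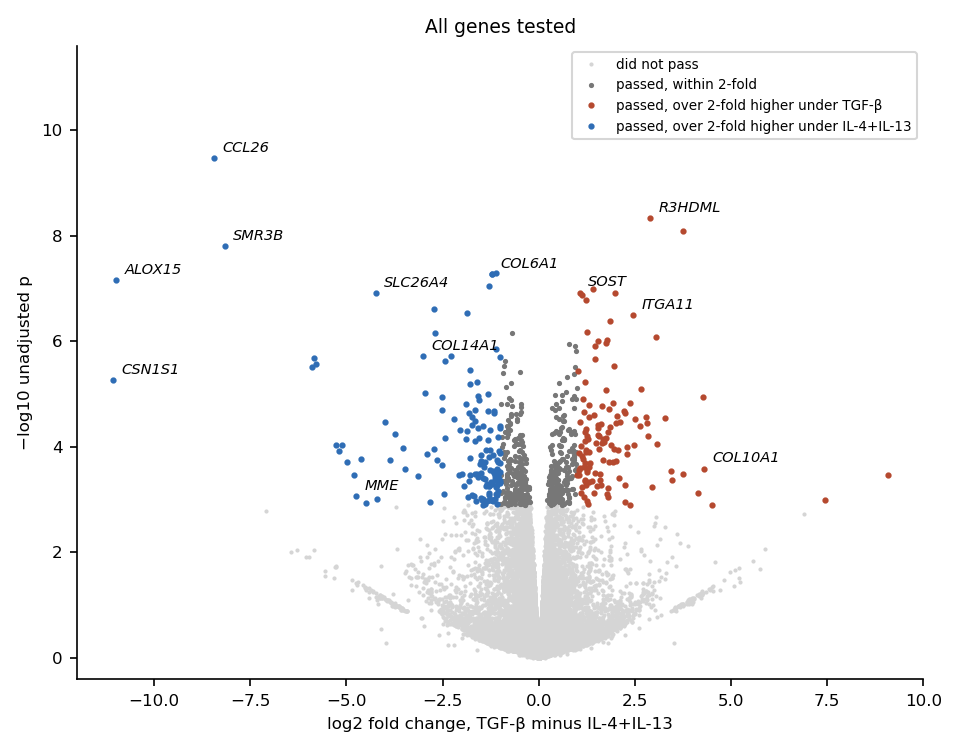
Each point is 1 of 27650 genes, with the log2 fold change of TGF-β against IL-4+IL-13 on the x axis (positive where the level under TGF-β was higher) and -log10 of the unadjusted edgeR p on the y axis. Genes with an adjusted p under 0.05 and beyond 2-fold are colored by direction (121 higher under TGF-β, 147 higher under IL-4+IL-13). Genes that passed within 2-fold are dark gray. The points farthest from 0 lie on the IL-4+IL-13 side.

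The genes that stood farthest apart were higher under IL-4+IL-13 and were close to undetected under TGF-β. ALOX15, the arachidonate lipoxygenase that makes hydroxy fatty acids of type 2 inflammation, was at 0 to 0.393 CPM (median 0.173) under TGF-β and 124 to 428 CPM (median 413) under IL-4+IL-13 (log2 fold change -10.99 ± 0.46, adjusted p = 0.000242; SE, n = 6 batches, as for every fold change here). The lowest IL-4+IL-13 library was thus far above the highest TGF-β library. CCL26, the eosinophil chemoattractant eotaxin-3, was at 0 to 0.167 CPM (median 0.0565) under TGF-β and 6.01 to 56.6 CPM (median 19.6) under IL-4+IL-13 (adjusted p = 9.46e-06). SLC26A4, the anion exchanger pendrin, was at 0 to 0.389 CPM (median 0.263) under TGF-β and 0.77 to 8.19 CPM (median 4.05) under IL-4+IL-13 (log2 fold change -4.24 ± 0.30, adjusted p = 0.000263), and here too the groups were separate. Vehicle libraries held these transcripts near the TGF-β level, with at most 0.527 CPM of ALOX15, 0.145 CPM of CCL26 and 0.301 CPM of SLC26A4. SLC26A4 overlaps an antisense gene, and since the strandedness of the libraries is not given in the sources used here, their reads cannot be told apart.

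CISH and CSN1S1 joined them on the IL-4+IL-13 side, and CISH and the casein genes are known as targets of STAT5, a relative of STAT6 that acts downstream of prolactin and other cytokine receptors. CISH, a feedback inhibitor of cytokine receptors, and CSN1S1, the milk protein alpha S1 casein, are shown with 300 bases of sequence around the annotated start (RefSeq, GRCh38.p14, 250 bases before and 50 after), because the gamma-activated sequence bound by STAT proteins can be read in them. Capitals mark TTCNNNGAA and, in CSN1S1, also TTCNNNNGAA, the form with 1 more base between its arms that STAT6 is known to favor. Both strands were searched, and both motifs read the same on either strand.
CISH, chr3:50611725-50612024, minus strand: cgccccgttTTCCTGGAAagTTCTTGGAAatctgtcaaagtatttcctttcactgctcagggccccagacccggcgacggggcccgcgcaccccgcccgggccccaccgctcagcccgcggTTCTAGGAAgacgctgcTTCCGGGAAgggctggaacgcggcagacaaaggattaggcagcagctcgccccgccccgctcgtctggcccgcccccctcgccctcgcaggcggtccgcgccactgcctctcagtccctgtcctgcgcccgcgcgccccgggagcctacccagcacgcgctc
CSN1S1, chr4:69930818-69931117, plus strand: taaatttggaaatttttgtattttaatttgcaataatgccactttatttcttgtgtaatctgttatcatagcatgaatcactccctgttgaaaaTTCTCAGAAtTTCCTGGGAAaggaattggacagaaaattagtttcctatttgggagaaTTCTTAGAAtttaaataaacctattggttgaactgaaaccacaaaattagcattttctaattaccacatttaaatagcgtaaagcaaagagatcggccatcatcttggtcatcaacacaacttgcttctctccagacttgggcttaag

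TTCNNNGAA occurred 4 times before the start of CISH, at 241, 230, 129 and 112 bases, and TTCNNNNGAA was not in the window. The CSN1S1 window held TTCNNNGAA at 156 and 98 bases before the start and TTCNNNNGAA at 146 bases, with no overlap between matches. Of all 35116 promoter windows of this length, 7.66% held TTCNNNGAA at least once, 7 (0.0199%) held it 4 or more times, and 6.44% held TTCNNNNGAA. Of the 15 genes per direction named by size, 11 on each side had a promoter window. TTCNNNGAA was in 3 of 11 windows on the IL-4+IL-13 side and in 1 of 11 on the TGF-β side. TTCNNNNGAA was in 1 of 11 and 2 of 11. CISH and CSN1S1 were shown for their matches, and the motifs were not tested as parting the treatments. A match is a description of the letters and not of binding.

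The level of CISH was 0.762 to 4.29 CPM (median 1.64) under TGF-β and 11.2 to 33.7 CPM (median 27.3) under IL-4+IL-13, against 0.781 to 1.88 CPM (median 1.35) in vehicle libraries (log2 fold change -3.86 ± 0.52, adjusted p = 0.0177). All IL-4+IL-13 libraries lay above all TGF-β libraries, and the narrowest gap was in batch 2, with 11.2 against 4.29 CPM. The call of CISH was lost without any 1 of batches 3 to 5 (adjusted p from 0.0508 to 0.0668), and CISH (chromosome 3, 50606489 to 50611774) overlaps MAPKAPK3. CSN1S1 had no read in any TGF-β or vehicle library and 5 to 687 reads in the IL-4+IL-13 libraries, where it was at 0.133 to 20.2 CPM (median 5.42). Against a floor of 3 counts over the TGF-β group it was at least 506-fold higher under IL-4+IL-13 (adjusted p = 0.00305). Batch 2 was again the lowest IL-4+IL-13 library of CSN1S1.

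Membrane and matrix genes also led on the IL-4+IL-13 side. MME encodes neprilysin, a membrane peptidase that cleaves substance P and other neuropeptides, and lies on chromosome 3 (155024202 to 155183729). Its level was 1.5 to 9.02 CPM (median 4.72) under TGF-β and 55.9 to 271 CPM (median 141) under IL-4+IL-13, and 4.49 to 10.4 CPM (median 8.98) in vehicle libraries (log2 fold change -4.75 ± 0.76, adjusted p = 0.0412). The groups were far apart, yet the within-batch log2 ratio ran from -7.23 in batch 3 to -2.62 in batch 6, and the call was lost without any 1 of batches 1 to 5 (adjusted p from 0.0602 to 0.114). COL14A1, a fibril-associated collagen, was at 0.953 to 4.87 CPM (median 4.03) under TGF-β and 13.4 to 38.5 CPM (median 25.2) under IL-4+IL-13 (log2 fold change -3.01 ± 0.24, adjusted p = 0.00159) and did not overlap between groups. IL1RL1, the receptor of IL-33, had 2 reads over all TGF-β libraries and was 73.7-fold higher under IL-4+IL-13 (95% counting interval 20.4 to 609; adjusted p = 0.00200), a call that was lost without batch 5 (adjusted p = 0.115). The remaining genes of this side were SMR3B (2 reads over the TGF-β libraries, ratio 373, interval 103 to 3083), SERPINB11 (-5.83), TMEM71 (-5.79), FHL5 (-4.98), FGG (-4.81), SLCO1B3 (-3.99) and SERPINB4 (-3.73), with log2 fold changes in brackets. Of these, FHL5 lost its call without any 1 of batches 3 to 6 (adjusted p from 0.0665 to 0.0900), FGG without batch 2, 4, 5 or 6 (0.0551 to 0.0914) and SERPINB4 without batch 5 (0.0527). FHL5, FGG, SLCO1B3 and IL1RL1 had medians of 0.574 to 1.22 CPM under IL-4+IL-13, so these are transcripts of low level. The groups overlapped for FHL5, FGG and SLCO1B3.

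On the TGF-β side R3HDML had the smallest p. It encodes a secreted protein with a cysteine-rich domain of the CAP family. R3HDML was at 4.57 to 12.6 CPM (median 10.9) under TGF-β and 0.691 to 1.85 CPM (median 1.29) under IL-4+IL-13 (log2 fold change 2.89 ± 0.14, adjusted p = 6.56e-05), and vehicle libraries held 1.86 to 4.57 CPM (median 2.5). The groups did not overlap, and the within-batch log2 ratio stayed between 2.48 and 3.14. The sequence around its start (chromosome 20, plus strand) is shown for this reason, with capitals on CAGAC or its reverse complement GTCTG, the letters of a SMAD-binding element, searched on both strands.
R3HDML, chr20:44336793-44337092, plus strand: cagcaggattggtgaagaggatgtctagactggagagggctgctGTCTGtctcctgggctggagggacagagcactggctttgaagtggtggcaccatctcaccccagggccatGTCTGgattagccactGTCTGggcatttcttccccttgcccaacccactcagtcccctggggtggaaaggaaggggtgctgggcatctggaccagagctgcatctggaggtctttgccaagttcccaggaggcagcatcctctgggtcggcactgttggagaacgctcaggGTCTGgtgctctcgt
The motif lay 206, 136 and 120 bases before the start and once after it, 4 matches in all, and none overlapped another. CAGAC is short and occurred in 45.3% of all promoter windows, while 4 or more matches occurred in 200 of them (0.569%). Among the genes named by size it was in 6 of 11 windows on each side. The CISH window printed above also held it, unmarked, at 185, 89 and 50 bases before the start. The span of R3HDML overlaps an antisense gene.

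Receptors and secreted proteins of matrix adhesion followed. ITGA11, the integrin chain that with ITGB1 binds fibrillar collagen, lies on chromosome 15 (68296532 to 68432163) and was at 102 to 443 CPM (median 197) under TGF-β and 18.6 to 60.5 CPM (median 40.9) under IL-4+IL-13 (log2 fold change 2.45 ± 0.16, adjusted p = 0.000500). TGFBI, a secreted matrix protein named for its induction by TGF-β, was at 432 to 1626 CPM (median 1076) under TGF-β and 81.5 to 332 CPM (median 195) under IL-4+IL-13 (log2 fold change 2.38 ± 0.24, adjusted p = 0.00532). For both, the lowest TGF-β library exceeded the highest IL-4+IL-13 library, and both passed whichever batch was left out. COL10A1, the short-chain collagen of growth-plate cartilage, had the largest fold change of the named genes on this side, at low levels of 0.127 to 5.19 CPM (median 1.86) under TGF-β and 0 to 0.213 CPM (median 0.0684) under IL-4+IL-13 (log2 fold change 4.30 ± 0.71, adjusted p = 0.0219). Its groups overlapped, its span overlaps NT5DC1, and its call was lost without batch 3, 5 or 6 (adjusted p from 0.0558 to 0.0961). MMP7, the protease matrilysin, was at 0.666 to 21.1 CPM (median 1.83) under TGF-β and 0 to 0.889 CPM (median 0.129) under IL-4+IL-13 (log2 fold change 3.74 ± 0.61, adjusted p = 0.0243), with batch 1 well above the other TGF-β libraries, and its call was lost without any 1 of batches 3 to 6 (adjusted p from 0.0549 to 0.0927).

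PTGS2, the inducible cyclooxygenase of prostaglandin synthesis, stood on the side opposite to ALOX15. Its level was 1.39 to 7.7 CPM (median 5.33) under TGF-β and 0.135 to 1.39 CPM (median 0.598) under IL-4+IL-13 (log2 fold change 2.84 ± 0.39, adjusted p = 0.00997), so the groups met at their edges without overlap. The call was lost without batch 5 (adjusted p = 0.0558). TNFSF10, the death ligand TRAIL, was at 4.17 to 50.7 CPM (median 29.9) under TGF-β and 1.23 to 5.98 CPM (median 3.62) under IL-4+IL-13 (log2 fold change 2.82 ± 0.32, adjusted p = 0.00771), and only the lowest TGF-β library reached into the IL-4+IL-13 range. Other secreted or signaling genes of this side were HHIP, which binds hedgehog ligands (3.09), TMEM92 (3.04), the transcription factor FOXS1 (2.79), FGF5 (2.24), the osteoclast factor TNFSF11 (2.30), BMP3 (2.10) and ODAM (2.49). Leaving out batch 5 ended the calls of FOXS1 (adjusted p = 0.0531), FGF5 (0.0508) and ODAM (0.0508), and leaving out batch 3 ended that of HHIP (0.0510). TNFSF11 lost its call without batch 3 or 5 (adjusted p from 0.0783 to 0.0797). The groups overlapped for TNFSF11 and ODAM, as for MMP7 above.

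**Figure D2:**
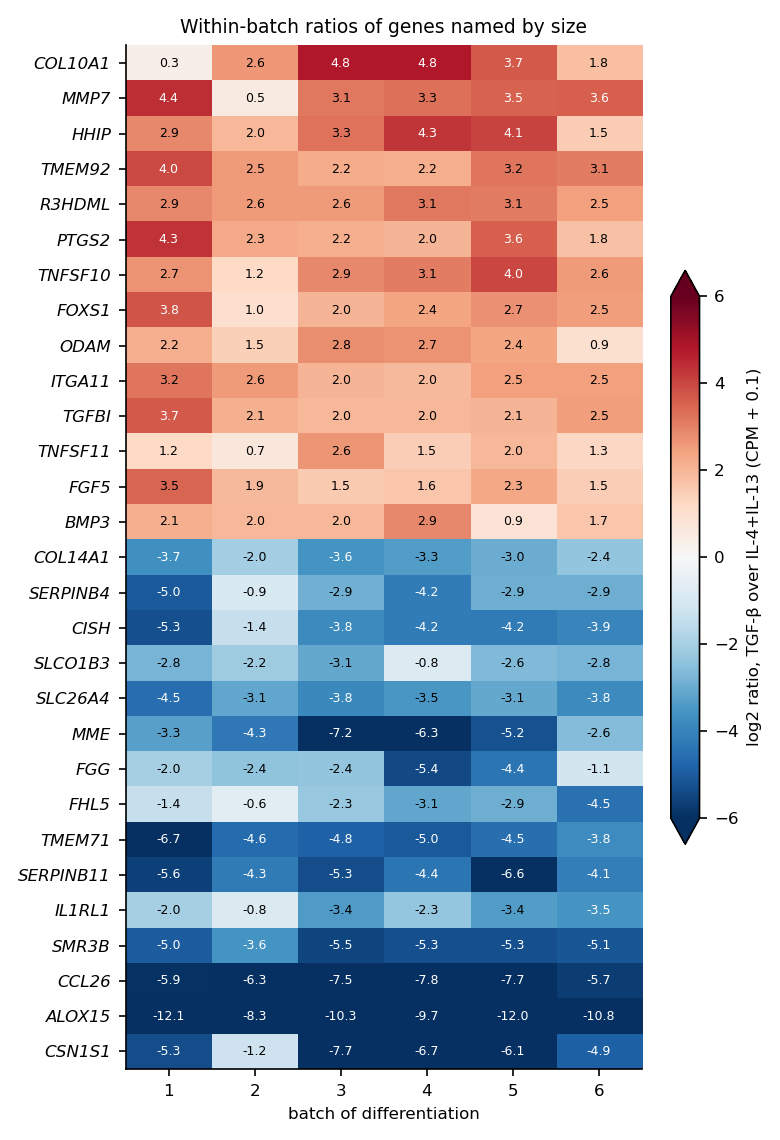
Rows are genes drawn from the 15 per direction with the largest fold change, columns are batches 1 to 6, and color gives the log2 ratio of TGF-β to IL-4+IL-13 CPM within a batch (0.1 CPM added to both). Every gene shown keeps its direction in 6 of 6 batches, as the choice of genes required, and sizes differ between batches, as for MMP7, CISH and CSN1S1 in batch 2.

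The genes with the smallest p values included CCL26, SMR3B, ALOX15, SLC26A4, R3HDML and ITGA11, described above for their size. Among the others, higher under TGF-β were IL11, a cytokine of the IL-6 family (log2 fold change 1.85 ± 0.13, adjusted p = 0.000598), and RUNX1, a transcription factor of sensory neurons and blood cells (log2 fold change 1.98 ± 0.14, adjusted p = 0.000263). SERPINA3 (1.13), SOST (1.07) and CLEC18B (1.25) were also higher, where reads of CLEC18B are uncertain because CLEC18A and CLEC18C are near-identical copies. Higher under IL-4+IL-13 were COL6A1, a chain of type VI collagen (log2 fold change -1.21 ± 0.08, adjusted p = 0.000214), KDR, the VEGF receptor of endothelium (log2 fold change -1.28 ± 0.09, adjusted p = 0.000263), PFKP, a phosphofructokinase of glycolysis (-1.21), and CYP1B1, a cytochrome P450 (-1.11). These genes passed whichever batch was left out. KDR moved with the summed endothelial markers given above, of which it is 1.

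**Figure D3:**
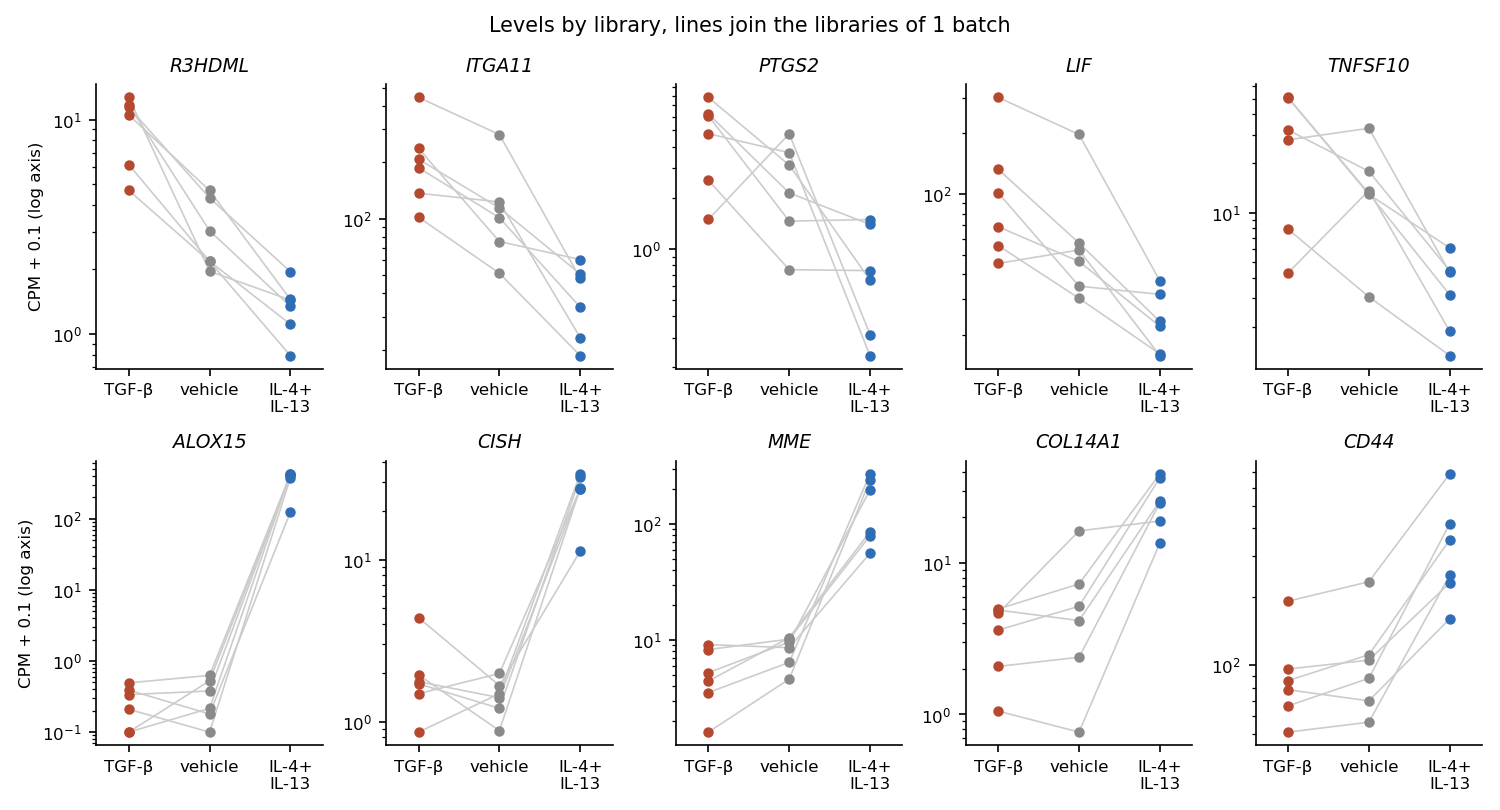
CPM + 0.1 on a log axis for 10 genes in the TGF-β, vehicle and IL-4+IL-13 libraries, with lines joining libraries of 1 batch. ALOX15, CISH and MME are high in the IL-4+IL-13 libraries alone, while for R3HDML, ITGA11, PTGS2, LIF and TNFSF10 the IL-4+IL-13 end of every line lies below its TGF-β end.

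The known targets and feedback genes of SMAD2 and SMAD3 lay on the TGF-β side. Of 24 tested, 13 were higher under TGF-β and 0 with IL-4+IL-13, at a median log2 fold change of 0.68, against 1.20% and 1.33% of all genes and a median of 0.00. PMEPA1, a feedback inhibitor of SMAD signaling, was at 94.8 to 254 CPM (median 202) under TGF-β and 27.8 to 86.3 CPM (median 49.5) under IL-4+IL-13 (log2 fold change 1.75 ± 0.14, adjusted p = 0.00114), without overlap between groups. LTBP2 (1.62 ± 0.19, adjusted p = 0.00788), ADAM12 (1.21 ± 0.16, adjusted p = 0.0109) and the SMAD corepressor SKIL (0.45 ± 0.06, adjusted p = 0.00532) were higher as well and, with TGFBI, IL11 and PMEPA1, passed whichever batch was left out. COL1A1 was lost without batch 3, 5 or 6 (adjusted p from 0.0523 to 0.0847), CCN2 without batch 2, 3, 5 or 6 (0.0773 to 0.148), JUNB without batch 5 (0.0596), TNS1 without any 1 of batches 2 to 6 (0.0659 to 0.145), SNAI1 without any 1 of batches 2 to 6 (0.0718 to 0.141) and LDLRAD4 without any 1 of batches 2 to 6 (0.100 to 0.162). The inhibitory SMAD7 was at 0.35 ± 0.09 (adjusted p = 0.104) and the BMP pseudoreceptor BAMBI at -0.49 ± 0.16 (adjusted p = 0.203), neither past the test. The count of 13 became 14, 9, 8, 10, 7 and 8 without batches 1 to 6 in turn. COL1A1 is also 1 of the 9 fibroblast markers, of which the other 8 did not pass.

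Ligands and receptors differed less. For scale, 1.20% of all genes tested passed toward TGF-β and 1.33% toward IL-4+IL-13. Of 23 genes of the TGF-β family, 4 were higher under TGF-β and 0 with IL-4+IL-13, at a median of 0.03: TGFB1 itself (1.26 ± 0.17, adjusted p = 0.0101), BMP6 (0.84 ± 0.12, adjusted p = 0.00914), TGFB2 (0.38 ± 0.08, adjusted p = 0.0339) and the receptor BMPR2 (0.32 ± 0.05, adjusted p = 0.0138). TGFB1 lost its call without batch 5 (adjusted p = 0.0568), BMP6 without batch 5 (adjusted p = 0.0506), BMPR2 without batch 3 or 4 (adjusted p from 0.0642 to 0.0674) and TGFB2 without any 1 of batches 2 to 6 (0.0628 to 0.129). The receptors TGFBR1 (0.03 ± 0.06) and TGFBR2 (-0.29 ± 0.14) did not pass. None of 14 BMP and ID target genes passed edgeR's test, with 7 at an unadjusted p under 0.05 and 4 past DESeq2.

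Among all genes tested, 1.33% passed toward IL-4+IL-13 and 1.20% toward TGF-β. Of 23 tested genes of the STAT6 and type 2 response, 8 were higher under IL-4+IL-13 and 0 under TGF-β, with a median log2 fold change of -0.53. Next to ALOX15, CCL26, SLC26A4 and SERPINB4 these were the receptors of cysteinyl leukotrienes CYSLTR1 (-2.92 ± 0.43, adjusted p = 0.0150) and CYSLTR2 (-2.48 ± 0.48, adjusted p = 0.0391), the serpin SERPINB3 (-2.74 ± 0.43, adjusted p = 0.0134) and the cadherin CDH26 (-1.12 ± 0.21, adjusted p = 0.0273). SERPINB3 and SERPINB4 are near-identical neighbors, so their reads are uncertain. The call of CYSLTR1 was lost without batch 3 or 5 (adjusted p from 0.0569 to 0.0715), that of CYSLTR2 without any 1 of batches 2 to 5 (0.0764 to 0.149), that of SERPINB3 without batch 3 (0.0580) and that of CDH26 without batch 2, 3, 5 or 6 (0.0605 to 0.0956). Periostin (POSTN), at -0.64 ± 0.31 (adjusted p = 0.429), NOS2, at 0.78 ± 0.19 (0.0826), and VCAM1, at -1.14 ± 0.31 (0.115), did not pass. The count of 8 became 10, 6, 4, 7, 4 and 7 without batches 1 to 6 in turn.

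The receptor side of IL-4 and IL-13 showed 1 difference among 15 genes (6.67%, against 2.53% of all genes tested). IL13RA2, the decoy receptor of IL-13, was at 13.2 to 206 CPM (median 38.9) under TGF-β and 68.4 to 393 CPM (median 104) under IL-4+IL-13 (log2 fold change -1.50 ± 0.23, adjusted p = 0.0238), with overlapping groups. It was lost without any 1 of batches 4 to 6 (adjusted p from 0.0641 to 0.0718). IL4R (0.54 ± 0.12, adjusted p = 0.0655), IL13RA1 (0.28 ± 0.07, 0.0721), JAK1 (0.28 ± 0.06, 0.0524) and STAT6 (-0.07 ± 0.07, 0.763) did not pass. Among 8 SOCS feedback inhibitors, CISH was higher under IL-4+IL-13 and SOCS6 under TGF-β (0.34 ± 0.07, adjusted p = 0.0321), the latter a call lost without any 1 of batches 2 to 6 (adjusted p from 0.0648 to 0.116). SOCS1 was at -0.35 ± 0.12 (adjusted p = 0.226) and SOCS3 at 0.28 ± 0.07 (0.0867).

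**Figure D4:**
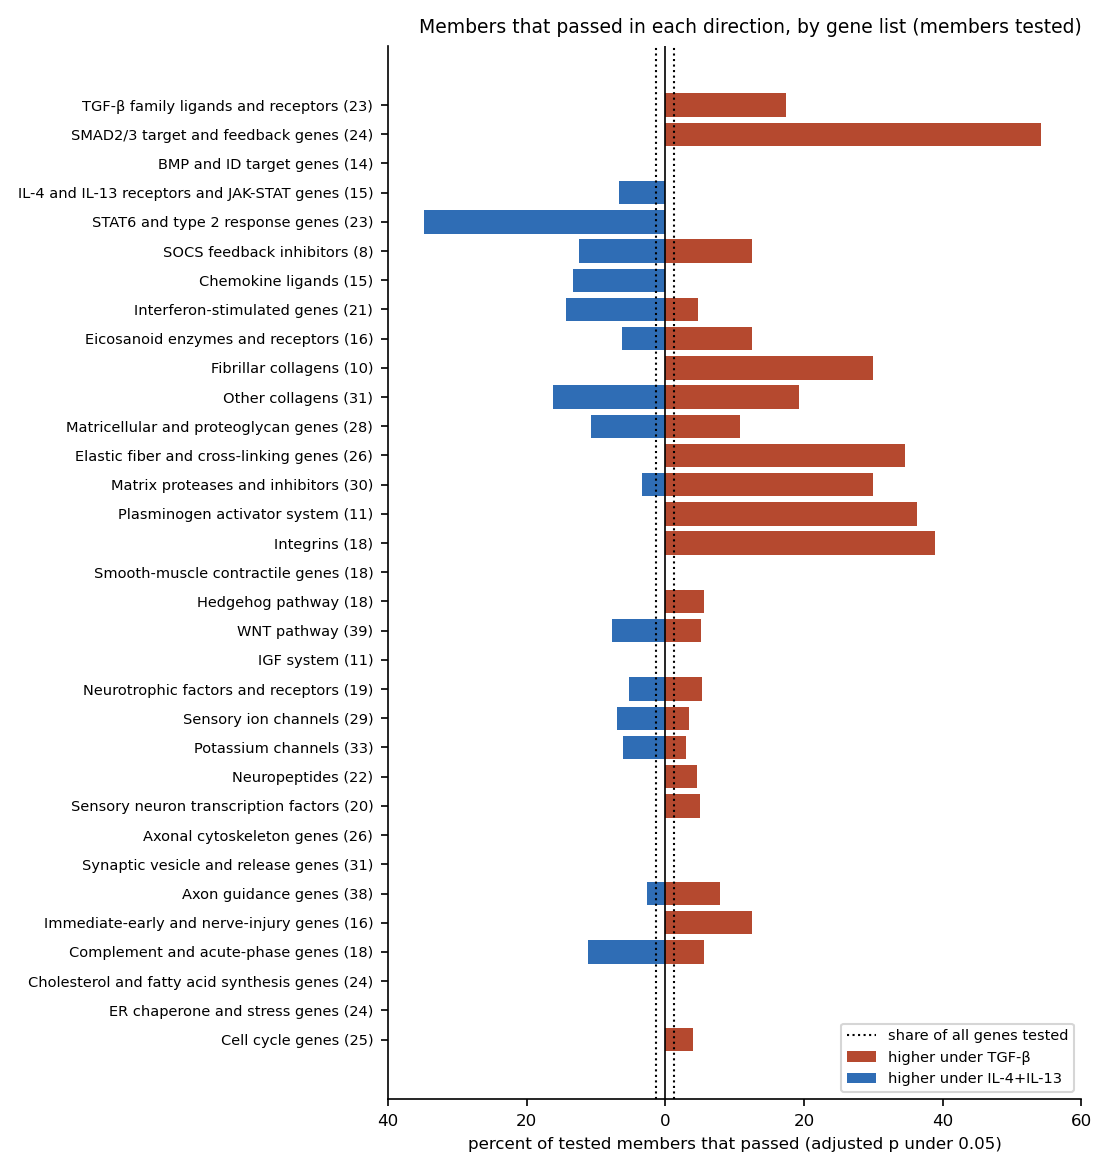
For each gene list, bars give the percent of its tested members that passed (adjusted p under 0.05) in each direction, and dotted lines give the percent among all genes tested (1.20% and 1.33%). SMAD2/3 targets have the longest bar toward TGF-β (13 of 24) and the STAT6 and type 2 list the longest toward IL-4+IL-13 (8 of 23).

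Matrix genes differed in both directions, list by list. Fibrillar collagens gave 3 of 10 higher under TGF-β and 0 with IL-4+IL-13, at a median log2 fold change of 0.49. COL1A1 was at 1984 to 8645 CPM (median 3746) under TGF-β and 717 to 2663 CPM (median 1616) under IL-4+IL-13 (log2 fold change 1.33 ± 0.21, adjusted p = 0.0189), and COL11A1 (0.99 ± 0.11, adjusted p = 0.00378) and COL5A1 (0.91 ± 0.11, adjusted p = 0.00460) passed whichever batch was left out. COL1A1 was lost without batch 3, 5 or 6 (adjusted p from 0.0523 to 0.0847). COL1A2, whose product forms type I collagen with that of COL1A1, was at 0.07 ± 0.12 (adjusted p = 0.897), and the larger of the 2 COL3A1 entries at -0.12 (0.804). Of 31 other collagens, 6 were higher under TGF-β and 5 with IL-4+IL-13. COL4A1 (0.76 ± 0.15, adjusted p = 0.0384) and COL4A2 (0.59 ± 0.13, adjusted p = 0.0497), the main chains of basement membrane collagen, were on the TGF-β side with COL10A1, COL22A1, COL9A2 and COL26A1. COL6A1, COL6A2 (-0.46 ± 0.06, adjusted p = 0.00619), COL14A1, COL23A1 and COL4A6 were on the IL-4+IL-13 side. COL4A1 lost its call without batch 2, 3, 4 or 6 (adjusted p from 0.0733 to 0.122), COL4A2 without any 1 of batches 2 to 6 (0.0739 to 0.148), COL26A1 without any 1 of batches 2 to 6 (0.0678 to 0.163) and COL4A6 without any 1 of batches 2 to 6 (0.0528 to 0.158).

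Genes of elastic fibers and of collagen cross-linking passed in 9 of 26 cases, all higher under TGF-β (median 0.31). That is 34.6%, against 2.53% of all genes tested. LOXL2, a lysyl oxidase that cross-links collagen and elastin, was at 53.9 to 142 CPM (median 65.7) under TGF-β and 24.1 to 37.6 CPM (median 31) under IL-4+IL-13 (log2 fold change 1.30 ± 0.15, adjusted p = 0.00675), and the microfibril protein MFAP5 (2.01 ± 0.27, adjusted p = 0.00771) was on the same side. Both passed whichever batch was left out. Elastin (ELN, 0.85 ± 0.15, adjusted p = 0.0248), FBN1 (0.77 ± 0.15, adjusted p = 0.0423), LOXL1 (0.78 ± 0.15, adjusted p = 0.0419), LTBP3 (0.39 ± 0.08, adjusted p = 0.0472), LTBP4 (0.53 ± 0.08, adjusted p = 0.00955), FBLN2 (0.59 ± 0.09, adjusted p = 0.0123) and P4HA3 (1.30 ± 0.21, adjusted p = 0.0145) depended on single batches. ELN was lost without batch 1, 2, 5 or 6 (adjusted p from 0.0594 to 0.0743), FBN1 without any 1 of batches 2 to 6 (0.0662 to 0.145), LOXL1 without any 1 of batches 2 to 6 (0.0657 to 0.159), LTBP3 without any 1 of batches 2 to 6 (0.0856 to 0.199), LTBP4 without batch 5 or 6 (0.0538 to 0.0703), FBLN2 without batch 4 or 6 (0.0506 to 0.0549) and P4HA3 without any 1 of batches 4 to 6 (0.0549 to 0.0618). The count of 9 became 8, 5, 6, 4, 3 and 2 without batches 1 to 6 in turn.

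Among 28 matricellular and proteoglycan genes, 3 were higher in each direction (21.4% in all, against 2.53% of all genes tested). FN1, fibronectin, was at 1075 to 4654 CPM (median 3014) under TGF-β and 438 to 1519.7 CPM (median 974) under IL-4+IL-13 (log2 fold change 1.48 ± 0.20, adjusted p = 0.0118). CD44, the receptor of hyaluronan, went the other way, at 51 to 191 CPM (median 81.9) under TGF-β and 159.9 to 689 CPM (median 301) under IL-4+IL-13 (log2 fold change -1.85 ± 0.22, adjusted p = 0.00893), as did SPARCL1 (-1.32 ± 0.15, adjusted p = 0.00617). FN1, CD44 and SPARCL1 passed whichever batch was left out, although the groups overlapped for each. TNFAIP6, a hyaluronan-binding protein, was higher under IL-4+IL-13 (-1.30 ± 0.25, adjusted p = 0.0377) and lost its call without any 1 of batches 3 to 6 (adjusted p from 0.0580 to 0.139). The proteoglycan VCAN (1.05 ± 0.17, adjusted p = 0.0228) was lost without batch 1, 3, 4, 5 or 6 (adjusted p from 0.0568 to 0.0726), and THBS2 (0.54 ± 0.08, adjusted p = 0.0123) without batch 4 (0.0528).

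Proteases and their receptors lay mainly on the TGF-β side. Of 30 matrix proteases and inhibitors, 9 were higher under TGF-β and 1 with IL-4+IL-13 (median 0.56). That is 33.3%, with 36.4% for the plasminogen activator system below, against 2.53% of all genes tested. The gelatinases MMP2 (0.91 ± 0.10, adjusted p = 0.00237) and MMP9 (1.65 ± 0.21, adjusted p = 0.00559), the membrane proteases MMP14 (0.52 ± 0.07, adjusted p = 0.00914) and MMP16 (0.60 ± 0.08, adjusted p = 0.00854), ADAMTS2 (the larger of its 2 entries, 0.86 ± 0.10, adjusted p = 0.00484) and ADAMTS16 (1.46 ± 0.14, adjusted p = 0.00170) passed whichever batch was left out. ADAMTS14 (2.08 ± 0.35, adjusted p = 0.0264) was lost without any 1 of batches 3 to 6 (adjusted p from 0.0642 to 0.101) and TIMP2 (0.32 ± 0.05, adjusted p = 0.0207) without any 1 of batches 2 to 6 (0.0674 to 0.0824). MMP28, epilysin, was the member higher under IL-4+IL-13, and both of its entries in the table passed, with log2 fold changes of -2.45 ± 0.24 and -2.27 ± 0.22. Of 11 genes of the plasminogen activator system, 4 were higher under TGF-β, among them SERPINE2 (0.79 ± 0.07, adjusted p = 0.00115), the urokinase receptor PLAUR (1.20 ± 0.13, adjusted p = 0.00321) and PLAT (0.75 ± 0.11, adjusted p = 0.00892), the last of which was lost without batch 5 (adjusted p = 0.0590).

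Integrins passed in 7 of 18 cases (38.9%, against 2.53% of all genes tested), all higher under TGF-β (median 0.33). Beside ITGA11 these were ITGB6 (1.46 ± 0.23, adjusted p = 0.0243), a partner in the integrin that releases active TGF-β, ITGA2 (0.92 ± 0.14, adjusted p = 0.0122), ITGAV (0.74 ± 0.13, adjusted p = 0.0249), ITGB1 (0.74 ± 0.13, adjusted p = 0.0243), ITGA3 (0.66 ± 0.13, adjusted p = 0.0353) and ITGB5 (0.36 ± 0.07, adjusted p = 0.0402). All of these except ITGA11 lost their call without a batch: ITGB6 without batch 2, 4, 5 or 6 (adjusted p from 0.0530 to 0.0863), ITGA2 without batch 5 (0.0837), ITGAV without any 1 of batches 2 to 6 (0.0507 to 0.126), ITGB1 without any 1 of batches 3 to 6 (0.0582 to 0.125), ITGA3 without batch 2, 3, 5 or 6 (0.0916 to 0.154) and ITGB5 without any 1 of batches 2 to 6 (0.0655 to 0.187). The count of 7 became 8, 3, 3, 3, 1 and 2 without batches 1 to 6 in turn. None of 18 smooth-muscle contractile genes passed edgeR's test, with 7 at an unadjusted p under 0.05 and 5 past DESeq2, and ACTA2 was at -0.02 ± 0.25 (adjusted p = 0.991). Of the fibroblast markers, COL1A1 alone passed, and the sum of the other 8 was higher under TGF-β in 5 of 6 batches, though near equal in batch 2, and lower in batch 5.

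**Figure D5:**
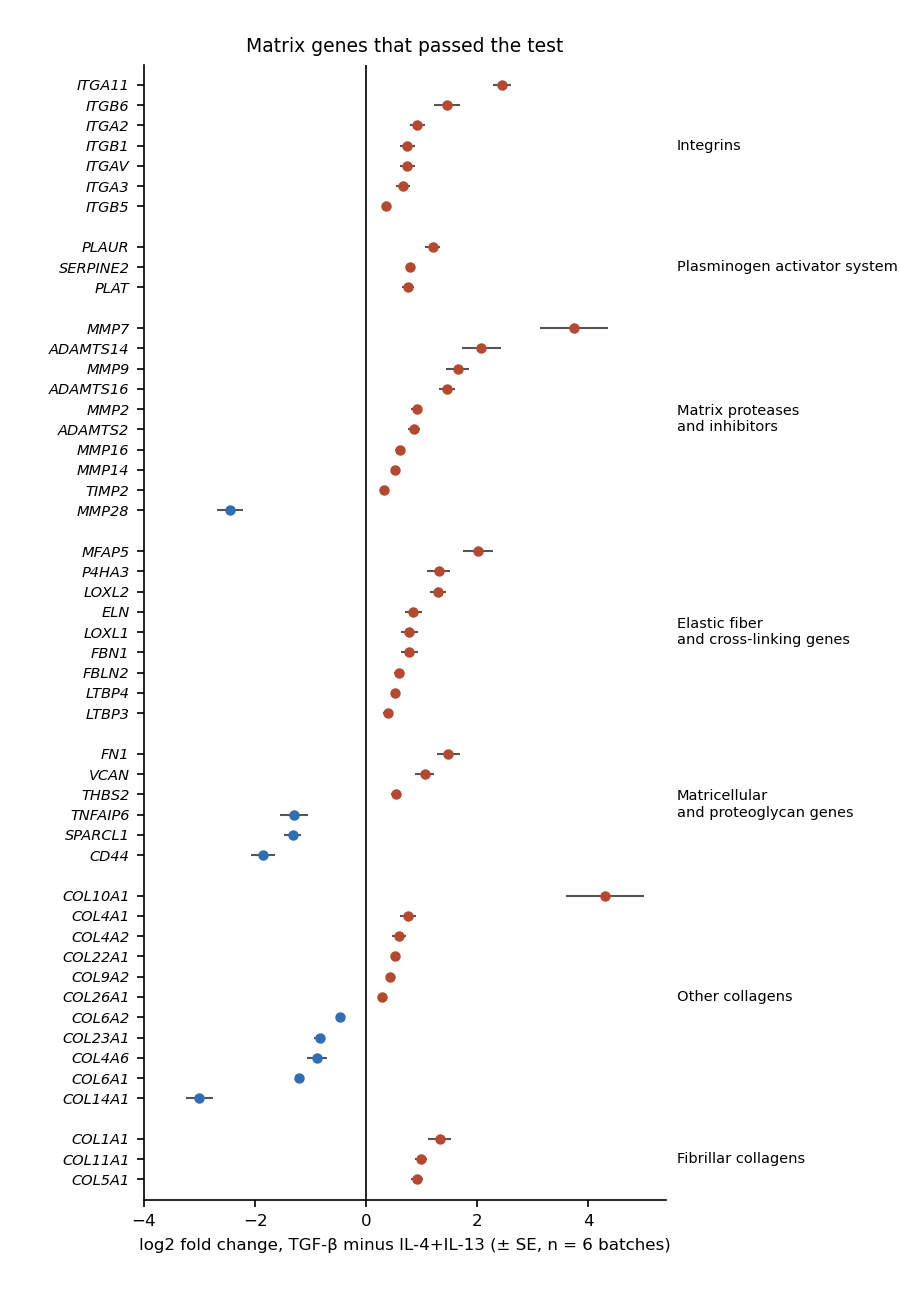
Log2 fold change of TGF-β against IL-4+IL-13 with its SE for matrix, protease and integrin genes that passed, by list. Integrin, elastic fiber and fibrillar collagen genes lie right of 0, and CD44, COL14A1, COL6A1 and MMP28 lie left of it.

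Inflammatory mediators were found on both sides, also within a list. Of eicosanoid genes 18.8% passed and of chemokine ligands 13.3%, against 2.53% of all genes tested. Of 16 eicosanoid enzymes and receptors, PTGS2 and the prostaglandin receptor PTGER2 (1.25 ± 0.27, adjusted p = 0.0460) were higher under TGF-β and the prostaglandin D synthase PTGDS under IL-4+IL-13 (-0.50 ± 0.11, adjusted p = 0.0490). PTGER2 was lost without any 1 of batches 1 to 6 (adjusted p from 0.0572 to 0.133) and PTGDS without any 1 of batches 2 to 6 (0.0903 to 0.184). Of 15 chemokine ligands tested, 2 were higher under IL-4+IL-13 and 0 under TGF-β (CCL26 was listed with the type 2 genes): CXCL6, a neutrophil attractant (-1.02 ± 0.13, adjusted p = 0.00830), and CXCL16 (-0.54 ± 0.09, adjusted p = 0.0213). CXCL6 was lost without batch 5 (adjusted p = 0.0527) and CXCL16 without any 1 of batches 3 to 6 (adjusted p from 0.0628 to 0.0886). CCL2 was at -0.81 ± 0.20 (adjusted p = 0.0950) and CXCL8 at 0.47 ± 0.28 (0.536).

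Interferon-stimulated genes passed in both directions. Of 21, IFI44L was higher under TGF-β (1.53 ± 0.21, adjusted p = 0.00965), whereas IFIT1 (-0.87 ± 0.17, adjusted p = 0.0377), IFIT2 (-1.03 ± 0.19, adjusted p = 0.0266) and IFIT3 (-1.28 ± 0.18, adjusted p = 0.00892), RNA-binding antiviral proteins, were higher under IL-4+IL-13. IFI44L was lost without batch 5 (adjusted p = 0.0559), IFIT1 without any 1 of batches 2 to 5 (adjusted p from 0.0828 to 0.160), IFIT2 without any 1 of batches 2 to 5 (0.0594 to 0.118) and IFIT3 without batch 5 (0.0531), and the IFIT genes share their locus with LIPA. Of 18 complement and acute-phase genes, SERPINA3 was higher under TGF-β, and FGG and the complement inhibitor CFI (-1.48 ± 0.21, adjusted p = 0.0185) were higher under IL-4+IL-13. CFI was lost without any 1 of batches 4 to 6 (adjusted p from 0.0522 to 0.0659).

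Lists of genes by which neurons sense and signal held members that passed in both directions. The share that passed was 0% of axonal cytoskeleton and of synaptic vesicle genes, 4.55% of neuropeptides and 5.0% of sensory transcription factors. It was 10.5% of neurotrophic factors and receptors, 10.3% of sensory ion channels, 9.09% of potassium channels and 10.5% of axon guidance genes, against 2.53% of all genes tested. These counts depended on batches: the 3 sensory channels became 6, 2, 0, 1, 0 and 0 without batches 1 to 6 in turn, the 3 potassium channels 5, 3, 1, 1, 1 and 1, and the 4 axon guidance genes 9, 3, 1, 2, 0 and 1. Of 19 neurotrophic factors and receptors, 1 was higher under TGF-β and 1 with IL-4+IL-13. The first was LIF, a cytokine of the IL-6 family that acts on sensory neurons, at 45.2 to 301 CPM (median 85) under TGF-β and 15.7 to 37 CPM (median 22.6) under IL-4+IL-13 (log2 fold change 2.03 ± 0.22, adjusted p = 0.00667), with no overlap and in every fit that left out a batch. BDNF (-0.26 ± 0.08, adjusted p = 0.160) and NTRK3 (-0.44 ± 0.12, 0.111) did not pass.

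Of 29 sensory ion channels, 1 was higher under TGF-β, the mechanosensitive channel PIEZO1 (0.75 ± 0.13, adjusted p = 0.0210), while IL-4+IL-13 libraries held more of 2, TRPV4 (-0.87 ± 0.18, adjusted p = 0.0425) and TRPM3 (-0.83 ± 0.14, adjusted p = 0.0263), which respond to osmotic stress and to heat. These calls were lost for PIEZO1 without batch 3, 5 or 6 (adjusted p from 0.0668 to 0.0745), for TRPV4 without any 1 of batches 2 to 6 (0.0691 to 0.169) and for TRPM3 without any 1 of batches 2 to 6 (0.0554 to 0.100). The capsaicin receptor TRPV1 was at 8.76 to 14.6 CPM (median 11.1) under TGF-β and 10.4 to 12.9 CPM (median 11.2) under IL-4+IL-13, with a log2 fold change of -0.06 ± 0.11 (adjusted p = 0.910), and PIEZO2 differed by -0.09 ± 0.07 (0.653). Of 33 potassium channels, KCNJ2, an inward rectifier that sets the resting potential, was at 3.74 to 12.8 CPM (median 6.48) under TGF-β and 9.51 to 34.8 CPM (median 28.4) under IL-4+IL-13 (log2 fold change -1.78 ± 0.17, adjusted p = 0.00222) and passed whichever batch was left out. KCNK1 (-0.60 ± 0.12, adjusted p = 0.0393), on the same side, was lost without batch 1, 3, 4, 5 or 6 (adjusted p from 0.0555 to 0.116), and KCNG1 (0.57 ± 0.11, adjusted p = 0.0314), higher under TGF-β, without any 1 of batches 3 to 6 (0.0761 to 0.120).

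Of 22 neuropeptide genes, SCG2 was higher under TGF-β (0.42 ± 0.08, adjusted p = 0.0259), a call lost without any 1 of batches 3 to 6 (adjusted p from 0.0909 to 0.125), and TAC1, the precursor of substance P, was at 0.11 ± 0.27 (0.931). RUNX1 was the 1 of 20 sensory transcription factors to pass. Of 38 axon guidance genes, PLXND1 (0.84 ± 0.11, adjusted p = 0.00953), EPHB2 (0.52 ± 0.09, adjusted p = 0.0215) and PLXNA4 (0.32 ± 0.07, adjusted p = 0.0452) were higher under TGF-β and EFNA5 (-0.44 ± 0.07, adjusted p = 0.0113) under IL-4+IL-13. PLXND1 was lost without batch 5 or 6 (adjusted p from 0.0523 to 0.0709), EPHB2 without any 1 of batches 3 to 6 (0.0768 to 0.0835), PLXNA4 without any 1 of batches 2 to 6 (0.0626 to 0.157) and EFNA5 without batch 3 or 5 (0.0518 to 0.0652). None of 26 axonal cytoskeleton genes passed edgeR's test or reached an unadjusted p under 0.05, and their log2 fold changes lay between -0.11 and 0.28. Batch 1 weighed on this list: its sum there was 9256 CPM under TGF-β and 15256 CPM under IL-4+IL-13, and without batch 1 the median rose from 0.00 to 0.17 and 3 genes passed higher under TGF-β. TUBB3, the neuronal tubulin, was at 0.02 ± 0.13 (adjusted p = 0.973). None of 31 synaptic vesicle genes passed, with 6 at an unadjusted p under 0.05, whereas 6 passed higher under TGF-β without batch 1 (median 0.22 in place of 0.07) and 3 with DESeq2. The glutamate transporter SLC17A6 was at 0.00 ± 0.20.

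Signaling lists differed in how many members passed. The WNT pathway had 12.8% of its members pass and the immediate-early and nerve-injury genes 12.5%, against 2.53% of all genes tested, while the hedgehog and cell cycle lists had 1 each. The 5 WNT genes became 7, 3, 0, 0, 0 and 0 without batches 1 to 6 in turn. Of 39 WNT pathway genes, WNT5B (0.60 ± 0.13, adjusted p = 0.0451) and WNT5A (0.41 ± 0.08, adjusted p = 0.0342) were higher under TGF-β, and AXIN2 (-0.35 ± 0.07, adjusted p = 0.0283), ROR2 (-0.46 ± 0.10, adjusted p = 0.0442) and FZD1 (-0.41 ± 0.08, adjusted p = 0.0253) under IL-4+IL-13. The call was lost for WNT5B without any 1 of batches 2 to 6 (adjusted p from 0.0549 to 0.160), WNT5A without any 1 of batches 2 to 6 (0.0604 to 0.130), AXIN2 without any 1 of batches 3 to 6 (0.0543 to 0.118), ROR2 without any 1 of batches 3 to 6 (0.0749 to 0.153) and FZD1 without any 1 of batches 3 to 6 (0.0548 to 0.0978). HHIP was the 1 of 18 hedgehog pathway genes to pass, and PTCH1 was at 0.03 ± 0.07 (adjusted p = 0.926). Of 25 cell cycle genes, CDKN2B, a cyclin-dependent kinase inhibitor, was higher under TGF-β (0.87 ± 0.13, adjusted p = 0.0175), a call lost without batch 3 or 5 (adjusted p from 0.0548 to 0.0808). EGR3 (1.18 ± 0.25, adjusted p = 0.0419) and JUNB (0.93 ± 0.12, adjusted p = 0.00893) were the 2 of 16 immediate-early and nerve-injury genes to pass, and EGR3 was lost without any 1 of batches 2 to 6 (adjusted p from 0.0676 to 0.159). None passed edgeR's test among 11 genes of the IGF system, 24 of cholesterol and fatty acid synthesis and 24 ER chaperone and stress genes, with 5, 4 and 6 at an unadjusted p under 0.05 and 3, 1 and 2 past DESeq2.

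Vehicle libraries, which had no part in the test, placed most of these genes between the treatments. The mean vehicle level lay between those of the treatments for 297 of the 332 genes higher under TGF-β (89.5%). It did so for 307 of the 368 higher under IL-4+IL-13 (83.4%), and for 36.7% of all genes tested. The passing genes were selected for a gap between the treatments, and a wider gap leaves more room for the vehicle mean. The contrast with all genes therefore cannot show how vehicle relates to the treatments. Among genes higher under TGF-β, vehicle was nearer to TGF-β for 214 and nearer to IL-4+IL-13 for 118. ITGA11 was at 51.2 to 281 CPM (median 108) in vehicle libraries, with a median between those of the treatments. Among genes higher under IL-4+IL-13, vehicle was nearer to TGF-β for 205 and nearer to IL-4+IL-13 for 163. This split was close to that over all 27650 genes tested, with 14836 nearer to TGF-β and 12814 nearer to IL-4+IL-13. CD44, at 56.3 to 232 CPM (median 96.5), and KCNJ2, at 7.46 to 14 CPM (median 8.29), were in vehicle libraries close to their TGF-β level. The vehicle libraries of batches 2 and 4 stood apart from the treated libraries of their batch, with neuronal marker sums of 8291 CPM against 4952 and 5363 CPM in batch 2 and of 7216 CPM against 11017 and 9231 CPM in batch 4, and these placements are a description without a test.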

How the data were processed

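Messenger RNA of 12 libraries (6 TGF-β, 6 IL-4+IL-13, from 6 batches) was compared. The deposited values are counts of reads per gene, made by the authors' sequencing provider from NovaSeq reads trimmed with Trimmomatic 0.30 and aligned to GRCh38.p14, without normalization or pooling. The aligner, counting tool and strandedness are not given in the sources used here, and the submitters' notes also name DESeq2. All 24 columns of the table were mapped to samples by title. The table holds 36468 entries, 13161 of them NewGene loci. Of all entries, 4886 share a symbol with another. These were kept apart, and lists use the entry with the highest mean count.

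Testing kept genes whose counts summed to 10 or more over the 12 libraries and was done with edgeR 4.0.16 (R 4.3.3, TMM, robust quasi-likelihood F test, batch and treatment as terms) with Benjamini-Hochberg adjustment over all genes tested, and "passed" means an adjusted p under 0.05. SE was taken as the log2 fold change over the root of F. Fold changes are TGF-β over IL-4+IL-13. Levels are TMM-normalized CPM over 18 libraries, vehicle included, with 0.1 CPM added for log ratios. A count interval or floor covers counting error only. The script was tested on simulated counts. Alternatives were DESeq2 1.42.0, other scalings, filters and sample sets, no batch term, and leaving out each batch.

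The labels' batches pair the libraries: deviations from group means over 15723 genes correlated at 0.35 to 0.85 (median 0.73) within batches, against a median of -0.19 between. Nothing says that the libraries came from separate lines, so p-values measure the spread between differentiations of 1 line. Named were the 15 genes per direction with the largest fold change among those beyond 2-fold with a mean count of at least 10, the same direction in 6 of 6 batches, 1 entry and no NewGene, LOC or readthrough name, the 8 per direction with the smallest p under the same conditions, and members of 33 lists and 13 marker lists. Certain genes entered the tests and counts but are not reported here. The comparison, lists and markers were chosen with earlier results of these data known.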

Additional observations from a re-analysis of the deposited data

Results flagged for a closer look

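Of 40 genes named by size or p, 4 had a batch whose log2 ratio of TGF-β to IL-4+IL-13 stood farther from the others than Dixon's 95% limit for 6 values, which chance passes in about 1 of 20 groups. For MMP7 the ratio in batch 2 was 0.5449, against 3.15 to 4.42 in the other batches. For CISH it was -1.36 in batch 2, against -5.29 to -3.83, where the TGF-β library held 4.29 CPM, the highest of its group, and the IL-4+IL-13 library 11.2 CPM, the lowest. For SMR3B it was -3.6037 in batch 2, against -5.50 to -4.999. SMR3B had no read in the TGF-β libraries of batches 1 to 5. Its ratio there follows from the added 0.1 CPM and the IL-4+IL-13 level, which was 1.12 CPM in batch 2. For TGFBI the ratio in batch 1 was 3.6817, against 1.97 to 2.52. Batch 2 held 3 of the 4, and CSN1S1 also had its smallest ratio there, -1.22, though not past the limit. The cause was not tested.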

How the results depend on the processing

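Of 140 named and listed genes, all kept their direction under every alternative run. All 140 also passed DESeq2, 125 missed the threshold without the batch term, 42 with the 18 libraries that include vehicle, 26 with all 24 libraries, and 84 in at least 1 fit that left out a batch. DESeq2 called 1811 genes in place of 700, of which 812 were higher under TGF-β and 999 with IL-4+IL-13, and 456 beyond 2-fold. With 18 libraries in the fit, 191 genes were higher under TGF-β, and with 24 libraries 557 were higher under IL-4+IL-13. Leaving out 1 batch gave 169 to 1347 genes in all, 88 to 695 higher under TGF-β, 81 to 652 higher under IL-4+IL-13 and 98 to 327 beyond 2-fold, the lowest without batch 5 and the highest without batch 1. With library size alone as the scaling, 38.9% of called genes were higher under TGF-β, against 47.4%. Genes at under 1 CPM, such as FHL5 and IL1RL1, rest on few reads, and depth limits the size of their fold change.

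The batch pairs the libraries, and the fit without the batch as a replicate block called 19 genes, 5 higher under TGF-β and 14 with IL-4+IL-13, all 19 beyond 2-fold.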

Other observations

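Genes of motile cilia formed a group of small differences toward IL-4+IL-13. These families were chosen after their values were seen, so their counts are a description. Of 89 tested genes of 7 families named for the axoneme (CFAP, DNAH, DNAI and DNALI, DNAAF, ODAD, RSPH and TEKT), 24 passed edgeR's test higher under IL-4+IL-13 and 0 higher under TGF-β. Among all genes tested, 1.33% and 1.20% did. Of the 89, 83 had a negative log2 fold change, with a median of -0.44, against a median of -0.002 over all genes tested. Their summed level was 638 to 1894 CPM (median 768) under TGF-β, 796 to 2409 CPM (median 916) under IL-4+IL-13 and 708 to 2079 CPM (median 820) in vehicle libraries, and in 6 of 6 batches the TGF-β library held the lower sum of the pair. The cilia-associated CFAP90 (-0.79 ± 0.11, adjusted p = 0.00953) passed whichever batch was left out. The dynein heavy chain DNAH12, at -1.18 ± 0.19 (adjusted p = 0.0158), passed in 3 of the 6 fits that left out a batch, and the radial spoke gene RSPH1, at -0.82 ± 0.15 (0.0335), in 2. The count of 24 depended on single batches, at 27, 12, 4, 3, 1 and 6 without batches 1 to 6 in turn, with 1 gene higher under TGF-β without batch 1, and it was 46 with DESeq2 and 0 without the batch term, while 80 to 86 of the 89 genes were negative in these fits.

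Other families looked at after their values were seen were mixed. Their counts are a description, and 1.20% of all genes tested passed toward TGF-β and 1.33% toward IL-4+IL-13. All 3 CLEC18 genes were higher under TGF-β, though their reads cannot be told apart with certainty. Of 12 laminin chains, 3 were higher under TGF-β and 0 with IL-4+IL-13, among them LAMB1 and LAMC1, each of which passed in 1 of the 6 fits that left out a batch. Of 13 NADPH oxidase genes, 1 was higher under TGF-β and 3 with IL-4+IL-13, DUOX2, DUOXA1 and DUOXA2. DUOX2, a hydrogen peroxide-forming oxidase of epithelia (-2.95 ± 0.34, adjusted p = 0.00429) passed whichever batch was left out. Of 5 terminal complement genes, 2 were higher under IL-4+IL-13: C6 (-2.52 ± 0.30, adjusted p = 0.00467), which passed whichever batch was left out, and C7, which passed in 1 of these 6 fits.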
